A study of Mus musculus with 15 samples.

Results

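Microglia of Cre/+ TAM mice, which carried the inducible Cre and had received tamoxifen, were set against microglia of Cre/+ OIL mice, which carried the same Cre and had received oil alone. The arrays were picked by the genotype and injection given in the labels, 6 of Cre/+ TAM and 3 of Cre/+ OIL, 9 of the 15 in the series, each from 1 mouse by its animal number. All were male C57BL/6 mice with loxP sites around part of *Tgfbr2* on both alleles (Tgfbr2 fl/fl), the R26-yfp reporter, and 1 *Cx3cr1* allele replaced by CreERT2, a recombinase that enters the nucleus once it binds tamoxifen. Tamoxifen was injected at 6 to 8 weeks of age as 8 mg in 200 µl corn oil, given 2 times 48 h apart, and cells were taken 4 weeks later; Cre/+ OIL mice received the oil only. The remaining 6 arrays, +/+ TAM, came from tamoxifen-injected Tgfbr2 fl/fl mice without Cre. Their values are given beside the comparison only where named, but they also enter the estimate of spread used in testing.

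Several features limit the groups as a model. Cre/+ TAM and Cre/+ OIL differed both in the deletion and in exposure to tamoxifen, and the effects of these cannot be told apart in this comparison. *Cx3cr1* is also active in monocytes and in other tissue macrophages, so Cre is not confined to microglia, and recombination was not complete in every cell. The deletion removes exons 2 and 3 and keeps the reading frame, so a transcript without the ligand-binding part can still be made. The labels give CD11b+/CD45low as the sort for every array, whereas the study's text gives a YFP gate for Cre/+ TAM mice and none for Cre/+ OIL mice. Animal numbers in the titles fall into a lower range, which holds all 3 Cre/+ OIL arrays, Cre/+ TAM replicates 1 and 2 and +/+ TAM replicates 1 to 3, and an upper range, which holds Cre/+ TAM replicates 3 to 6 and +/+ TAM replicates 4 to 6. Titles of Cre/+ OIL replicates 1 and 2 and of +/+ TAM replicate 3 carry the word neg, which the labels do not explain.

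TGF-β is a secreted cytokine that is released from a latent complex, binds the type II receptor encoded by *Tgfbr2*, and through the type I receptor *Tgfbr1* leads to phosphorylation of Smad2 and Smad3, which enter the nucleus with Smad4 and regulate transcription. In the brain the pathway is known for its part in the gene programme of resting microglia, the resident macrophages of the parenchyma, and for restraining macrophage activation elsewhere in the body. Macrophages at the borders of the brain, in the meninges, perivascular spaces and choroid plexus, are a separate population, marked among others by *Mrc1*, *Pf4* and *Ms4a7*. Expression was measured on Affymetrix arrays, whose probes are grouped into transcript clusters, 1 or more for each gene. All values below are log2 signals, and all differences are Cre/+ TAM minus Cre/+ OIL on that scale unless another pair is named, so that a difference of 1 is a fold of 2.

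The arrays carried the genes that define microglia. *P2ry12*, an ADP receptor of microglial processes, lay at 11.02 to 11.44 in Cre/+ TAM and 11.002 to 11.44 in Cre/+ OIL. *Csf1r*, the receptor for the growth factor that keeps macrophages alive, lay at 11.01 to 11.38 in Cre/+ TAM and 11.05 to 11.34 in Cre/+ OIL. *Tgfbr2* itself read 8.08, 8.36, 8.14, 8.28, 8.05 and 7.91 in Cre/+ TAM replicates 1 to 6, against 7.94, 8.32 and 8.49 in Cre/+ OIL replicates 1 to 3. The groups overlapped, the difference was -0.11 ± 0.13 (SE), with an adjusted p of 0.95; how many of the 24 probes of its cluster (chr9:116084297-116175363, GRCm38) lie in the deleted exons was not checked. *Cx3cr1*, whose locus both groups carried in the same state, read 10.74 to 11.41 in Cre/+ TAM and 11.15 to 11.53 in Cre/+ OIL. For *Cx3cr1* this gave a difference of -0.15 ± 0.15 (SE; adjusted p = 0.942).

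A few arrays stood apart, and their values touch most of the results. Averaged over the 74 clusters described next as higher, the signal was 7.64 and 6.92 in Cre/+ TAM replicates 1 and 2 and 5.68 to 5.96 in replicates 3 to 6, against 4.71, 4.86 and 5.08 in Cre/+ OIL. Markers of border-associated macrophages, 21 genes, averaged 6.75 and 5.57 in Cre/+ TAM replicates 1 and 2 and 4.92 to 5.09 in replicates 3 to 6, against 4.52, 4.66 and 4.65 in Cre/+ OIL. The same 2 arrays thus stood highest on both, and the part of border-associated macrophages in the higher signals was not tested. Of that marker list 4 genes were higher at the threshold defined below (*Dab2*, *Mrc1*, *Pf4* and *Ms4a7*), and among its defining markers *Cd163*, a haemoglobin scavenger receptor of such macrophages, read 6.99 and 4.37 in replicates 1 and 2 and 3.70 to 4.19 in the other 4 in Cre/+ TAM, against 3.62, 3.76 and 3.97 in Cre/+ OIL. Cre/+ OIL replicate 3 was the other array: neutrophil markers averaged 4.10 to 4.37 in Cre/+ TAM, against 4.09, 4.07 and 5.91 in Cre/+ OIL replicates 1 to 3. They averaged 5.43 in +/+ TAM replicate 2 and 4.10 to 4.45 in the other +/+ TAM arrays. Monocyte markers averaged 4.29 to 4.60 in Cre/+ TAM, against 4.29, 4.26 and 4.82 in Cre/+ OIL replicates 1 to 3. Immediate early genes averaged 7.64 to 8.59 in Cre/+ TAM, against 7.13, 7.13 and 8.86 in Cre/+ OIL. The 3 arrays with neg in the title were the lowest of all 15 on these genes, +/+ TAM replicate 3 averaging 7.15 and the other +/+ TAM arrays 7.75 to 8.67. The part of neutrophils or monocytes in the values of Cre/+ OIL replicate 3 was not tested. In bulk samples fewer cells of a type and less RNA per cell cannot be told apart.

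**Figure D1:**
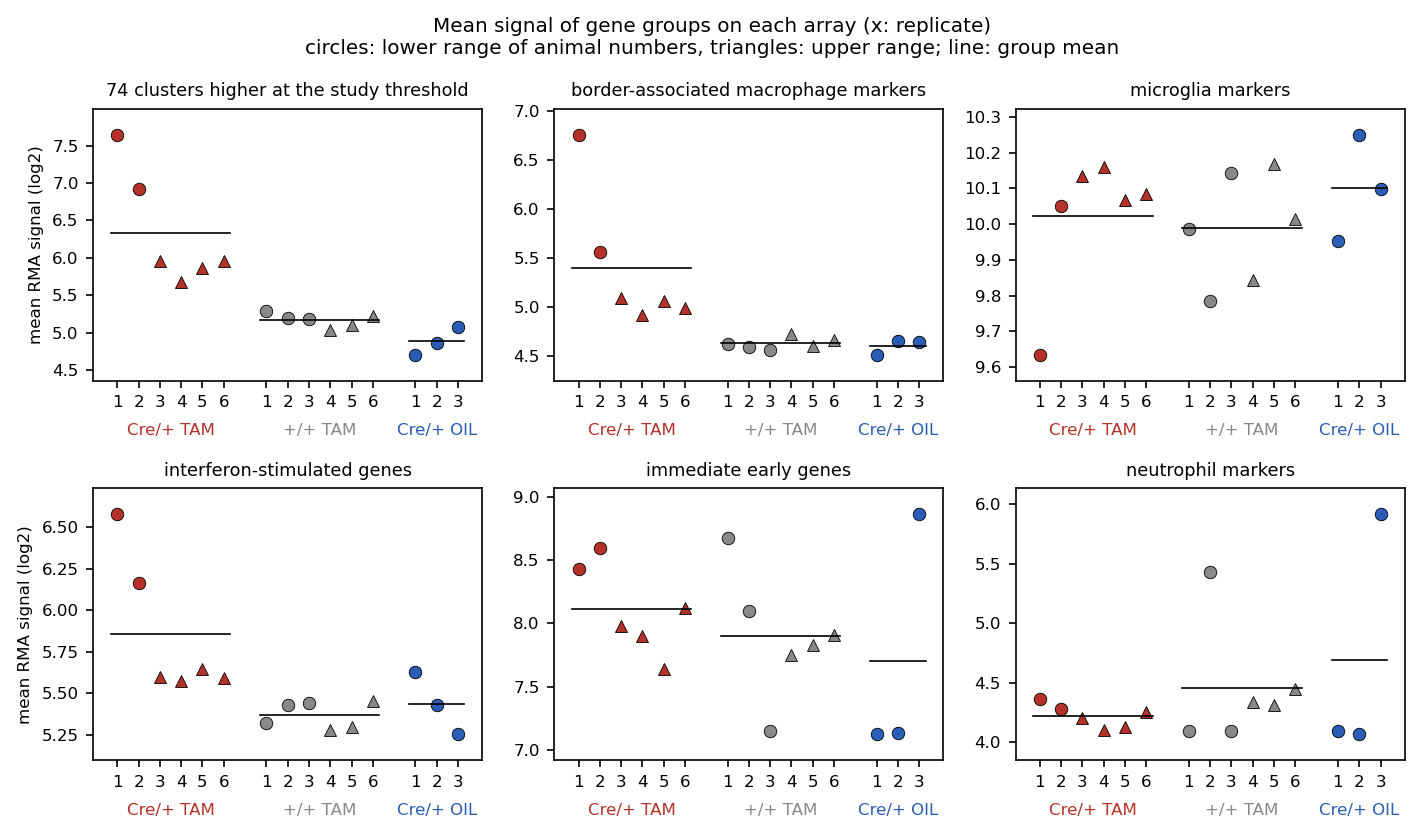
Mean log2 signal per array (vertical axis) over 6 sets of clusters or genes, with 1 point for each array of Cre/+ TAM, +/+ TAM and Cre/+ OIL, circles for the lower and triangles for the upper range of animal numbers, and lines at group means. Cre/+ TAM replicates 1 and 2 lie above the other arrays for the 74 higher clusters (7.64 and 6.92), and Cre/+ OIL replicate 3 lies above the other arrays for the neutrophil markers.

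Across 32471 transcript clusters with a gene symbol, of 34390 on the table, no cluster passed an adjusted p of 0.05 in limma in either direction; the smallest adjusted p was 0.112. An unadjusted p under 0.05 was reached by 1897 clusters, 951 higher (2.93% of all tested) and 946 lower (2.91%). The study's own threshold, which it applied to Cre/+ TAM against +/+ TAM, was a p under 0.05 together with a 2-fold or larger difference. The study does not say whether that p was adjusted, and the unadjusted p was used for it here. At this threshold 74 clusters with 72 symbols were higher in Cre/+ TAM (0.228%) and 26 clusters with 24 symbols were lower (0.0801%). The methods' unpaired test also left 0 clusters in each direction after adjustment, and at the same threshold gave 30 higher and 20 lower. Without Cre/+ OIL replicate 3 the counts were 168 higher and 85 lower, with 56 of the 74 and 24 of the 26 among them, and without Cre/+ OIL replicate 2 they were 62 and 42. The spread behind these tests was estimated over all 15 arrays. With only the 9 arrays of the 2 groups fitted, 57 clusters were higher and 24 lower at the threshold, and 0 passed adjustment. The genes described below as higher or lower are therefore given by their values and by this threshold. None of them passed an adjusted p of 0.05 in the fit of all 15 arrays unless so stated. In 44 of the 74 higher clusters every Cre/+ TAM array lay above every Cre/+ OIL array, which held for 1.44% of all clusters, and in 10 of the 26 lower clusters every Cre/+ TAM array lay below, which held for 1.46%. Both sets were picked on these same arrays, so such separation was partly set by that choice. Lists were counted over 1 cluster per gene, 30884 genes in all. Of these 0.22% were higher and 0.0712% lower at the study's threshold, 2.98% were higher and 2.92% lower at an unadjusted p under 0.05, and 1.43% had all Cre/+ TAM arrays above and 1.46% below all Cre/+ OIL arrays.

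The spread within Cre/+ TAM was wide where the signal was higher. The median SD over the 74 clusters was 0.91 in Cre/+ TAM and 0.42 in Cre/+ OIL, whereas over all clusters it was 0.19 in both groups. Cre/+ TAM replicates 1 and 2 were the highest pair of the 6 in 48 of the 74, against 8.35% of all clusters. With that pair left out, all 74 stayed higher by sign with a median difference of 0.91, and 43 clusters were higher and 29 lower at the threshold, of which 30 and 17 belonged to the original 74 and 26. Then 3 genes passed an adjusted p of 0.05 in limma, all higher: *Ms4a7* by 2.02 (adjusted p = 0.00697), *Vcam1* by 1.26 (adjusted p = 0.00697) and *Pf4* by 1.68 (adjusted p = 0.0229). With the range of animal numbers as a block, 17 clusters were higher and 4 lower past an adjusted p of 0.05. Within the lower range alone, where 2 Cre/+ TAM arrays met 3 of Cre/+ OIL, 75 were higher and 9 lower. Cre/+ OIL had no upper-range array, so the block was estimated from Cre/+ TAM and +/+ TAM and taken as equal in all groups. For *Ms4a7* it was not equal: +/+ TAM read 3.23 to 3.79 in the lower range and 3.23 to 4.36 in the upper, Cre/+ TAM 9.82 and 8.48 against 5.55 to 6.00. Those past it with the block included *Ms4a4a* by 4.31, *Ms4a7* by 4.13, *Pf4* by 3.80, *Vcam1* by 2.90, *Gpr65* by 2.41 and *Iigp1* by 2.20, and among the lower *Pde2a* by -1.20 and *Gprasp2* by -1.35. In 48 of the 74 clusters each of the 4 upper-range Cre/+ TAM arrays lay above every Cre/+ OIL array, which held for 3.57% of all clusters. The 74 were picked on these same arrays, so their sign and separation here were largely set by that choice.

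**Figure D2:**
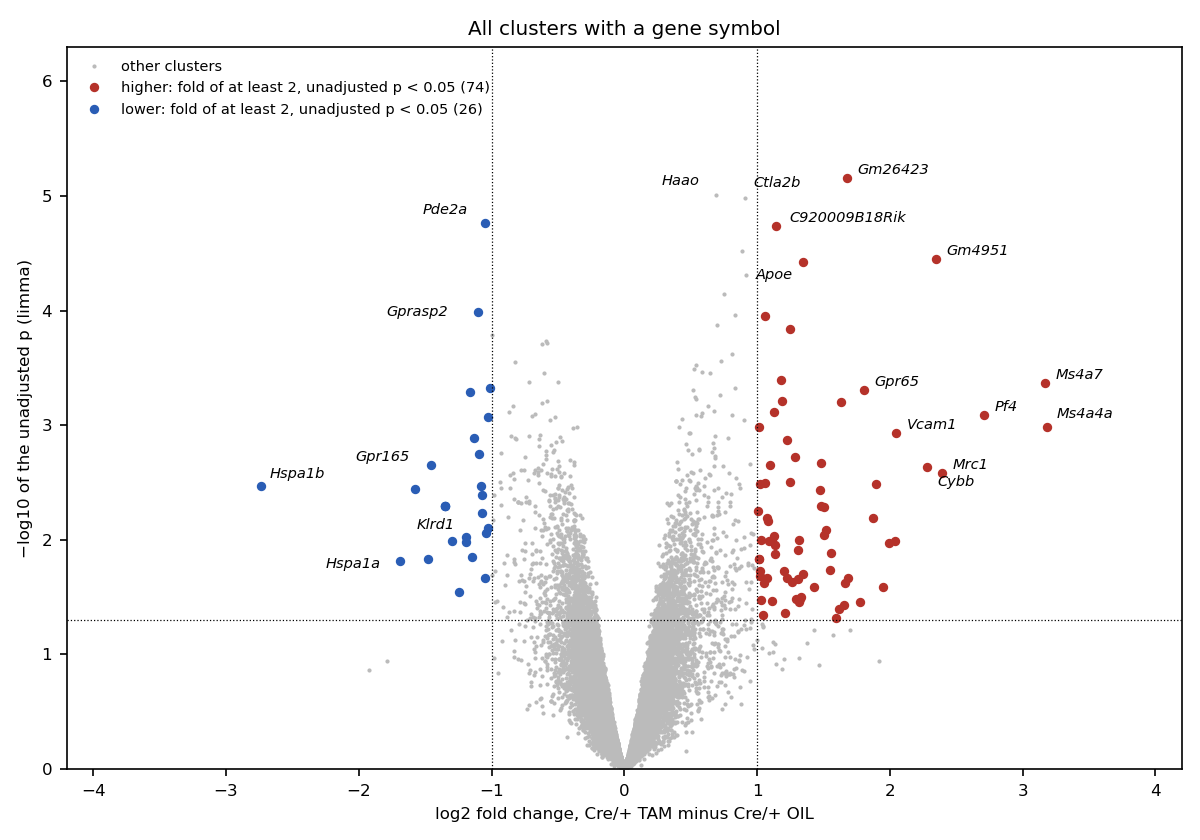
Difference in log2 signal, Cre/+ TAM minus Cre/+ OIL (horizontal axis), against minus log10 of the unadjusted p from limma (vertical axis), 1 point for each of 32471 clusters. The 74 clusters higher and 26 lower at the study's threshold are coloured and the leading genes are named.

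Promoter sequences are shown for 6 genes that stand for the groups described below: an interferon-induced enzyme, the oxidase subunit, a pair of class II genes, the chaperone with the largest negative difference, and the phosphodiesterase that was lower on every array. The windows are the 250 bases before the RefSeq start on GRCm38.p6, written along the gene's own strand, and capitals mark each match to the motif named, read on either strand.
Oas1g, chr5:120887614-120887863, minus strand, interferon motif: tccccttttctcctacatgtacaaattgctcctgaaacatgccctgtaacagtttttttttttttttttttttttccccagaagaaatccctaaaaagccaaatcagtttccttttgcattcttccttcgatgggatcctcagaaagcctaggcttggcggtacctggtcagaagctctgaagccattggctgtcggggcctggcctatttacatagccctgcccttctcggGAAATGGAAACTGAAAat
Cybb, chrX:9469325-9469574, minus strand, interferon motif: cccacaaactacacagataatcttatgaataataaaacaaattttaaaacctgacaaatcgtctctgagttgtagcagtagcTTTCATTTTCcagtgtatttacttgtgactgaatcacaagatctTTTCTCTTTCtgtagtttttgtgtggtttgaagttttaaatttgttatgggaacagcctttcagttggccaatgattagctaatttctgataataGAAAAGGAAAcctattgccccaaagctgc
H2-Aa, chr17:34287824-34288073, minus strand, ATTGG: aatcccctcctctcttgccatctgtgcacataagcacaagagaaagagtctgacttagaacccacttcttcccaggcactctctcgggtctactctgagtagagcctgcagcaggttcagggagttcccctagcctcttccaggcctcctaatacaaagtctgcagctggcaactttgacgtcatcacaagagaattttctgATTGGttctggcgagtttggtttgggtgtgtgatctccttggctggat
H2-Eb1, chr17:34305617-34305866, plus strand, ATTGG: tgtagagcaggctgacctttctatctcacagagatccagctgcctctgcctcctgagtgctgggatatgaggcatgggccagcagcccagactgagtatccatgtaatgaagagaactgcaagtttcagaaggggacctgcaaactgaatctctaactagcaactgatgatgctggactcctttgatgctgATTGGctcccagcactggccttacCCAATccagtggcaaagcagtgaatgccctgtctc
Hspa1b, chr17:34959239-34959488, minus strand, GAANNTTC: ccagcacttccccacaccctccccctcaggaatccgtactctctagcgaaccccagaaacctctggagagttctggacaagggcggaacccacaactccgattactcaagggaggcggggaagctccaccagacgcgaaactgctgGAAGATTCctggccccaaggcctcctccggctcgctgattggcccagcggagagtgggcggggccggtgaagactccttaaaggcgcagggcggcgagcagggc
Pde2a, chr7:101421441-101421690, plus strand, CAGACA: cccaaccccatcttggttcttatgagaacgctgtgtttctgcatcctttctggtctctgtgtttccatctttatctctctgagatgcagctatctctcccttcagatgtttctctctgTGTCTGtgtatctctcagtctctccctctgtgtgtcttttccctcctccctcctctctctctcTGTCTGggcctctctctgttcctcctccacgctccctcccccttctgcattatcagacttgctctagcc
The interferon motif is the core of the interferon-stimulated response element, 2 copies of GAAA separated by 2 bases of any kind, and is bound by interferon-activated factors. *Oas1g* held 2 overlapping copies, 18 and 12 bases before the start, and *Cybb* held 3. ATTGG is the Y box of class II promoters, GAANNTTC a pair of units of the heat shock element and CAGACA a short element read by Smads. None of the capitals overlaps a match to another of these motifs.

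A RefSeq window was found for 28 of the 72 symbols higher at the threshold and 7 of the 24 lower. The interferon motif was in 6 of the 28 (21.4%: *Clec4b1*, *Cybb*, *D17H6S56E-5*, *F630028O10Rik*, *Fcgr4* and *Oas1g*), against 3.04% of all 27025 windows, and in 15 of 42 interferon-stimulated genes with a window (35.7%). Of those 15 *Oas1g* alone was higher at the threshold. The Y box was in 7 of 8 class II windows (87.5%), against 34.5% of all. Of those 7 only *H2-Aa* and *H2-Eb1* were higher at the threshold. Among the 28 higher windows the Y box was in 11 (39.3%), near its share of all windows. The heat shock pair was in 5 of 11 chaperone windows (45.5%), *Hspa1a* and *Hspa1b* among them, against 6.78% of all. The Smad element was in 3 of the 28 higher and in 2 of the 7 lower windows (*Gprasp2* and *Pde2a*), against 17.1% of all. These are counts of letters in a short window and show no binding.

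The largest differences belonged to genes of membrane proteins of the Ms4a family, which span the membrane several times and are found on leukocytes. *Ms4a4a* (chr19:11375523-11392790) read 9.36 and 7.22 in Cre/+ TAM replicates 1 and 2 and 3.52 to 5.52 in replicates 3 to 6, against 2.79, 2.94 and 2.53 in Cre/+ OIL. The *Ms4a4a* difference was 3.18 ± 0.81 (SE), with an adjusted p of 0.523. *Ms4a7* (chr19:11321039-11336144), which is high in border-associated macrophages, read 9.82 and 8.48 in Cre/+ TAM replicates 1 and 2 and 5.55 to 6.00 in replicates 3 to 6, against 3.68, 4.00 and 3.41 in Cre/+ OIL. For *Ms4a7* this gave a difference of 3.17 ± 0.73 (SE; adjusted p = 0.45). Neither gene overlapped between the groups, and the 4 upper-range Cre/+ TAM arrays also lay above all Cre/+ OIL arrays. *Ms4a14* (chr19:11301494-11314333) read 7.05 and 5.78 in Cre/+ TAM replicates 1 and 2 and 2.61 to 3.17 in replicates 3 to 6, against 2.51, 2.45 and 2.39 in Cre/+ OIL, so that its difference of 1.61 came to 0.44 without the pair. Of the 19 family members measured, 4 were higher at the threshold (*Ms4a4a*, *Ms4a7*, *Ms4a14* and *Ms4a4c*, the last by 1.19) and 2 more had an unadjusted p under 0.05, with a family median of 0.07 where the median of all 30884 genes was -0.0045. The family thus held a few members far above the rest and a majority near 0.

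*Pf4* and *Mrc1* followed the same order of arrays. *Pf4*, which encodes the chemokine CXCL4 of platelets and some macrophages, read 10.09 and 8.56 in Cre/+ TAM replicates 1 and 2 and 6.04 to 6.47 in replicates 3 to 6, against 4.66, 4.39 and 4.63 in Cre/+ OIL, a fold of 6.53. The *Pf4* difference was 2.71 ± 0.67 (SE), with an adjusted p of 0.484. *Mrc1*, the mannose receptor CD206, read 10.26 and 8.30 in Cre/+ TAM replicates 1 and 2 and 5.76 to 6.76 in replicates 3 to 6, against 4.203, 5.33 and 5.13 in Cre/+ OIL. For *Mrc1* this gave a difference of 2.39 ± 0.68 (SE; adjusted p = 0.62). *Dab2*, an endocytic adaptor chosen after its values were seen, read 10.56 and 8.98 in Cre/+ TAM replicates 1 and 2 and 7.02 to 7.32 in replicates 3 to 6, against 6.72, 6.62 and 6.69 in Cre/+ OIL. In all 3 the groups did not overlap, and the pair held the 2 highest values. Of the 21 border-associated macrophage markers 8 had an unadjusted p under 0.05, all higher, and the list median was 0.44.

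**Figure D3:**
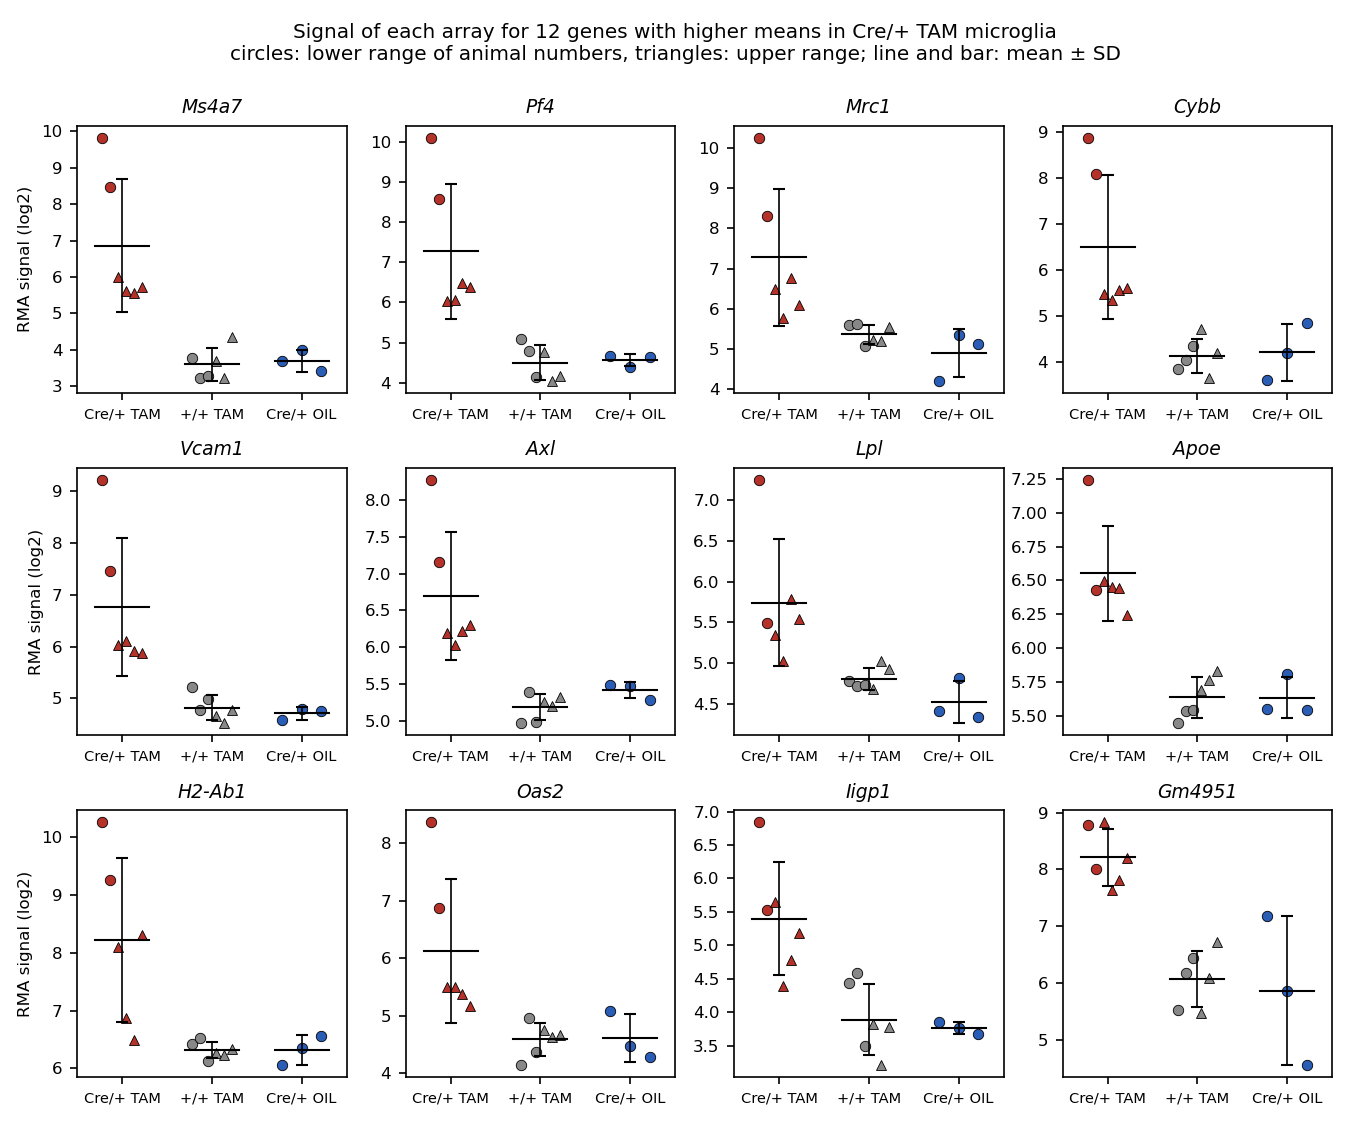
Log2 signal per array for 12 genes higher in Cre/+ TAM, with groups from left to right Cre/+ TAM, +/+ TAM and Cre/+ OIL, circles for the lower and triangles for the upper range of animal numbers, and bars for mean ± SD (n = 6, 6 and 3). For *Ms4a7*, *Pf4* and *Vcam1* all Cre/+ TAM arrays lie above all Cre/+ OIL arrays, and replicates 1 and 2 lie highest.

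MHC class II genes were higher in part. Class II molecules present peptides taken up from outside the cell to CD4+ T cells, with *Cd74* as the invariant chain that guides them. *H2-Ab1*, the β chain of I-A, read 10.26, 9.27, 8.10, 6.87, 6.50 and 8.32 in Cre/+ TAM replicates 1 to 6, against 6.06, 6.35 and 6.57 in Cre/+ OIL. The *H2-Ab1* difference was 1.90 ± 0.56 (SE), with an adjusted p of 0.632. *H2-Aa*, the α chain, read 8.28 and 7.16 in Cre/+ TAM replicates 1 and 2 and 3.90 to 5.83 in replicates 3 to 6, against 3.54, 4.25 and 4.83 in Cre/+ OIL. For *H2-Aa* this gave a difference of 1.68 ± 0.66 (SE; adjusted p = 0.8). *Cd74* read 9.97 and 9.07 in Cre/+ TAM replicates 1 and 2 and 6.06 to 8.07 in replicates 3 to 6, against 5.50, 5.89 and 7.26 in Cre/+ OIL. The *Cd74* difference was 1.66 ± 0.67 (SE), with an adjusted p of 0.81. The groups overlapped for all 3: Cre/+ TAM replicate 5, and for *H2-Aa* and *Cd74* also replicate 4, reached into the range of Cre/+ OIL. Of 11 class II genes measured 4 were higher at the threshold, these 3 and *H2-Eb1* at 1.03, 0 were lower, and the median was 0.32.

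Class I genes, whose products present peptides from inside the cell to CD8+ T cells, had 1 member of 26 at the threshold, *H2-Q7*, when counted over 1 cluster per gene. Among these class I and peptide loading genes 6 had an unadjusted p under 0.05, and the median was 0.18. *H2-Q7*, a Qa-2 gene whose probes are marked as able to bind related transcripts, read 7.37 to 8.87 in Cre/+ TAM, against 6.87, 7.04 and 7.15 in Cre/+ OIL. For *H2-Q7* this gave a difference of 1.18 ± 0.27 (SE; adjusted p = 0.45). Of several *H2-Q5* clusters 1, differing by 1.21, was also higher at the threshold, as was a cluster that *H2-Q6* and *H2-Q8* share, differing by 1.504. Both lie outside this count. The other *H2-Q5* clusters differed by -0.015 to 0.35. In the *H2-Q5* cluster at 1.21, Cre/+ OIL replicate 3 read 5.84, within the range of Cre/+ TAM at 4.97 to 7.21. *H2-M3*, which presents formylated peptides and was chosen after its values were seen, read 6.16 to 6.84 in Cre/+ TAM, against 6.00, 5.93 and 5.55 in Cre/+ OIL. The *H2-M3* difference was 0.70 ± 0.14 (SE), with an adjusted p of 0.312. Neither *H2-Q7* nor *H2-M3* overlapped between the groups, and for *H2-M3* the pair was not at the top of the Cre/+ TAM arrays.

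Interferon-stimulated genes, induced when type I or type II interferon activates STAT factors, had a median of 0.33 over 59 measured. Of these 7 were higher at the threshold and 0 lower, and 18 had an unadjusted p under 0.05. *Oas1g*, one of the synthetases that make 2-5A on sensing double-stranded RNA, read 7.22 and 5.46 in Cre/+ TAM replicates 1 and 2 and 2.76 to 3.77 in replicates 3 to 6, against 2.62, 1.85 and 2.19 in Cre/+ OIL. For *Oas1g* this gave a difference of 2.04 ± 0.71 (SE; adjusted p = 0.727). *Oas2*, its relative, read 8.36 and 6.87 in Cre/+ TAM replicates 1 and 2 and 5.17 to 5.50 in replicates 3 to 6, against 5.08, 4.47 and 4.28 in Cre/+ OIL. The *Oas2* difference was 1.52 ± 0.51 (SE), with an adjusted p of 0.719. The genes of interferons, their receptors and IFN-γ signalling, 15 in number, had no member with an unadjusted p under 0.05 and a median of 0.06. The list mean of the stimulated genes was 6.58 and 6.16 in Cre/+ TAM replicates 1 and 2 and 5.58 to 5.65 in replicates 3 to 6, against 5.63, 5.43 and 5.26 in Cre/+ OIL, so that the pair again lay highest.

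A small set of interferon-inducible GTPases, which act on the membranes around intracellular pathogens, was higher, and *Gm4951* among them showed another order of arrays. *Gm4951*, annotated as such a GTPase, read 8.78, 8.01, 8.83, 7.63, 7.81 and 8.21 in Cre/+ TAM replicates 1 to 6, against 7.18, 5.85 and 4.55 in Cre/+ OIL. For *Gm4951* this gave a difference of 2.35 ± 0.42 (SE; adjusted p = 0.152). Here the spread lay in Cre/+ OIL, whose replicates covered a wider range than the 6 Cre/+ TAM arrays, and the difference without the pair was 2.26. *Iigp1*, chosen after its values were seen, read 6.84, 5.53, 5.65, 4.40, 4.79 and 5.19 in Cre/+ TAM, against 3.85, 3.76 and 3.68 in Cre/+ OIL. The *Iigp1* difference was 1.63 ± 0.39 (SE), with an adjusted p of 0.482. Of 20 GTPases of the 2 families 4 were higher at the threshold, *Gm4951*, *Iigp1*, *F830016B08Rik* (1.25) and *Gbp8* (1.25), and the remaining 16 left the list median at 0.02. For *F830016B08Rik* and *Gbp8* Cre/+ TAM replicates 1 and 2 were again the highest pair. *Iigp1* was highest in replicate 1, and its difference without the pair was 1.24.

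Genes of phagocyte effector functions were among the leading differences. *Cybb*, the catalytic subunit gp91phox of the phagocyte NADPH oxidase that makes superoxide, read 8.88 and 8.10 in Cre/+ TAM replicates 1 and 2 and 5.36 to 5.61 in replicates 3 to 6, against 3.61, 4.202 and 4.85 in Cre/+ OIL, a fold of 4.86. For *Cybb* this gave a difference of 2.28 ± 0.64 (SE; adjusted p = 0.62). Its membrane partner *Cyba*, p22phox, read 7.78 to 8.67 in Cre/+ TAM and 7.97 to 8.24 in Cre/+ OIL, a difference of 0.18, and *Cybb* was the only one of 9 oxidase subunits with an unadjusted p under 0.05. *Fcgr4*, an activating receptor for IgG chosen after its values were seen, read 7.67 and 7.11 in Cre/+ TAM replicates 1 and 2 and 5.27 to 5.80 in replicates 3 to 6, against 5.24, 5.42 and 4.65 in Cre/+ OIL. *Aoah*, which removes acyl chains from bacterial lipopolysaccharide, read 8.94 and 6.98 in Cre/+ TAM replicates 1 and 2 and 4.38 to 5.10 in replicates 3 to 6, against 3.84, 3.78 and 3.86 in Cre/+ OIL. The *Aoah* difference was 1.99 ± 0.70 (SE), with an adjusted p of 0.732. For *Aoah* the difference without the pair was 0.92, and for *Cybb* it was 1.29.

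Receptors and adhesion molecules of the cell surface made up another group. *Vcam1*, an immunoglobulin-type adhesion molecule that binds the integrin α4β1, read 9.20 and 7.45 in Cre/+ TAM replicates 1 and 2 and 5.88 to 6.10 in replicates 3 to 6, against 4.58, 4.81 and 4.77 in Cre/+ OIL. For *Vcam1* this gave a difference of 2.05 ± 0.53 (SE; adjusted p = 0.546). *Itga4*, which encodes the α4 chain of that integrin, read 6.53 and 5.49 in Cre/+ TAM replicates 1 and 2 and 4.41 to 4.71 in replicates 3 to 6, against 4.17, 3.86 and 4.26 in Cre/+ OIL, a difference of 0.93. For *Vcam1* all 6 Cre/+ TAM arrays lay above the narrow range of Cre/+ OIL, and the difference without the pair was 1.26. *Gpr65*, a receptor that senses extracellular protons, read 10.01, 8.67, 7.76, 7.54, 8.59 and 7.79 in Cre/+ TAM, against 6.84, 6.55 and 6.37 in Cre/+ OIL. The *Gpr65* difference was 1.81 ± 0.42 (SE), with an adjusted p of 0.462. *Clec4a1*, a C-type lectin, and *Lilrb4*, an inhibitory immunoglobulin-like receptor, differed by 1.88 ± 0.60 and 1.56 ± 0.56 (SE), with no overlap between groups in either.

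A few lipid and disease-associated genes were higher at the threshold. Disease-associated microglia are a state seen around plaques and dying neurons, in which lipid-handling genes are raised. *Lpl*, lipoprotein lipase, read 7.25 and 5.50 in Cre/+ TAM replicates 1 and 2 and 5.03 to 5.79 in replicates 3 to 6, against 4.41, 4.81 and 4.34 in Cre/+ OIL. For *Lpl* this gave a difference of 1.22 ± 0.32 (SE; adjusted p = 0.557). *Axl*, a receptor tyrosine kinase that binds Gas6 on apoptotic cells, read 8.27 and 7.15 in Cre/+ TAM replicates 1 and 2 and 6.02 to 6.296 in replicates 3 to 6, against 5.48, 5.46 and 5.29 in Cre/+ OIL. The *Axl* difference was 1.28 ± 0.35 (SE), with an adjusted p of 0.613. *Apoe*, the main lipid carrier of the brain, chosen after its values were seen, read 7.24, 6.43, 6.49, 6.45, 6.44 and 6.25 in Cre/+ TAM, against 5.55, 5.81 and 5.54 in Cre/+ OIL. For *Apoe* this gave a difference of 0.92 ± 0.17 (SE; adjusted p = 0.177). In all 3 the groups were apart; for *Apoe* the difference without the pair was 0.77, and for *Lpl* it was 0.91. Of 34 genes of the list 2 were higher at the threshold, 8 had an unadjusted p under 0.05 and the median was 0.25, while 23 genes of cholesterol synthesis had a median of -0.03.

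Secreted and cell cycle genes included several with a wide spread. *Ccl7*, a chemokine that draws monocytes, read 8.74 and 7.80 in Cre/+ TAM replicates 1 and 2 and 5.67 to 6.06 in replicates 3 to 6, against 4.93, 5.44 and 5.75 in Cre/+ OIL, and *Ccl7* and *Pf4* were the 2 of 27 chemokine ligands that were higher at the threshold. *Wfdc17*, a secreted protein of activated macrophages, read 9.44 and 7.18 in Cre/+ TAM replicates 1 and 2 and 4.44 to 5.63 in replicates 3 to 6, against 4.31, 4.17 and 4.15 in Cre/+ OIL. The *Wfdc17* difference was 1.77 ± 0.77 (SE), with an adjusted p of 0.845. *Cp*, the ferroxidase ceruloplasmin, read 7.70 and 5.35 in Cre/+ TAM replicates 1 and 2 and 4.64 to 4.83 in replicates 3 to 6, against 4.30, 4.43 and 4.00 in Cre/+ OIL. For both, most of the difference lay in replicate 1 or in the pair: without the pair it was 0.61 for *Wfdc17* and 0.52 for *Cp*. *Cdkn1a*, the cell cycle inhibitor p21, read 9.98 and 9.63 in Cre/+ TAM replicates 1 and 2 and 7.42 to 8.09 in replicates 3 to 6, against 6.43, 6.33 and 8.45 in Cre/+ OIL, so that Cre/+ OIL replicate 3 lay inside the range of Cre/+ TAM. Its difference of 1.31 was -0.07 when that array was the only one of Cre/+ OIL. Of 26 cell cycle genes 0 were at the threshold and 7 had an unadjusted p under 0.05, all higher, with a median of 0.24; *Mki67*, a proliferation marker, read 6.31 and 6.93 in Cre/+ TAM replicates 1 and 2 and 4.80 to 5.26 in replicates 3 to 6, against 4.43, 4.46 and 5.05 in Cre/+ OIL.

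Some differences were large beside their SE. *Gm26423*, a predicted gene whose probes are marked as able to bind related transcripts, differed by 1.67 ± 0.26 (SE), with an adjusted p of 0.112 in limma and no overlap between the groups. It read 3.18 to 4.28 in Cre/+ TAM and 1.84, 2.45 and 1.27 in Cre/+ OIL, a low signal with an SD of 0.40 and 0.59. The +/+ TAM arrays lay between, at 2.40 to 3.26. Cre/+ TAM was 0.76 above +/+ TAM, which was 0.92 above Cre/+ OIL. The genes of this paragraph were chosen after their values were seen unless stated otherwise. *Ctla2b*, related to the propeptide of cathepsins, read 7.75, 8.11, 8.00, 7.99, 7.98 and 7.91 in Cre/+ TAM, against 6.80, 7.37 and 6.98 in Cre/+ OIL. For *Ctla2b* this gave a difference of 0.91 ± 0.15 (SE; adjusted p = 0.112). *Haao*, an enzyme of the kynurenine pathway of tryptophan breakdown, read 5.95, 5.92, 5.67, 5.65, 5.99 and 5.76 in Cre/+ TAM, against 4.95, 5.14 and 5.30 in Cre/+ OIL. The *Haao* difference was 0.69 ± 0.11 (SE), with an adjusted p of 0.112. Both were apart in every array and nearly as large without the pair, at 0.92 and 0.64. *C920009B18Rik*, annotated only as a RIKEN cDNA clone, read 5.49 to 6.58 in Cre/+ TAM, against 4.56, 4.63 and 4.83 in Cre/+ OIL. For *C920009B18Rik* this gave a difference of 1.15 ± 0.20 (SE; adjusted p = 0.119). *Kntc1*, a kinetochore protein, and *Tnfsf13b*, the B cell survival factor BAFF, differed by 0.89 ± 0.16 and 0.73 ± 0.16 (SE). *Tnfsf8*, the CD30 ligand, and *Cd52*, a small glycoprotein of leukocytes, are genes the study names; they differed by 0.84 ± 0.17 and 0.81 ± 0.18 (SE), with no overlap between groups.

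Among the 26 lower clusters 9 were protein-coding genes. *Pde2a*, a phosphodiesterase that hydrolyses cAMP and cGMP, had the lowest adjusted p of these and was chosen after its values were seen; it read 4.49, 4.46, 4.60, 5.23, 5.02 and 4.75 in Cre/+ TAM, against 5.89, 6.03 and 5.49 in Cre/+ OIL. The *Pde2a* difference was -1.05 ± 0.18 (SE), with an adjusted p of 0.119. *Gpr165*, an orphan receptor, read 5.84, 7.41, 8.33, 8.43, 8.10 and 8.12 in Cre/+ TAM, against 8.92, 9.25 and 9.32 in Cre/+ OIL. For *Gpr165* this gave a difference of -1.46 ± 0.41 (SE; adjusted p = 0.62). *Gprasp2*, which sorts internalised receptors to lysosomes, read 4.35, 4.83, 5.31, 5.53, 5.54 and 5.35 in Cre/+ TAM, against 6.42, 6.40 and 5.95 in Cre/+ OIL. The *Gprasp2* difference was -1.10 ± 0.22 (SE), with an adjusted p of 0.281. In all 3 every Cre/+ TAM array lay below every Cre/+ OIL array, and without the pair the differences were -0.90, -0.92 and -0.82. *Klrd1*, the CD94 chain of receptors on natural killer cells, read 3.73, 3.35, 5.38, 5.45, 4.86 and 5.28 in Cre/+ TAM, against 5.58, 5.93 and 6.10 in Cre/+ OIL, and *Gimap9*, a small GTPase of lymphocytes, read 3.44 to 4.84 in Cre/+ TAM, against 5.65, 5.56 and 4.67 in Cre/+ OIL. *Klrd1* was the only one of 18 T and NK cell markers with an unadjusted p under 0.05, and the list median was 0.11.

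**Figure D4:**
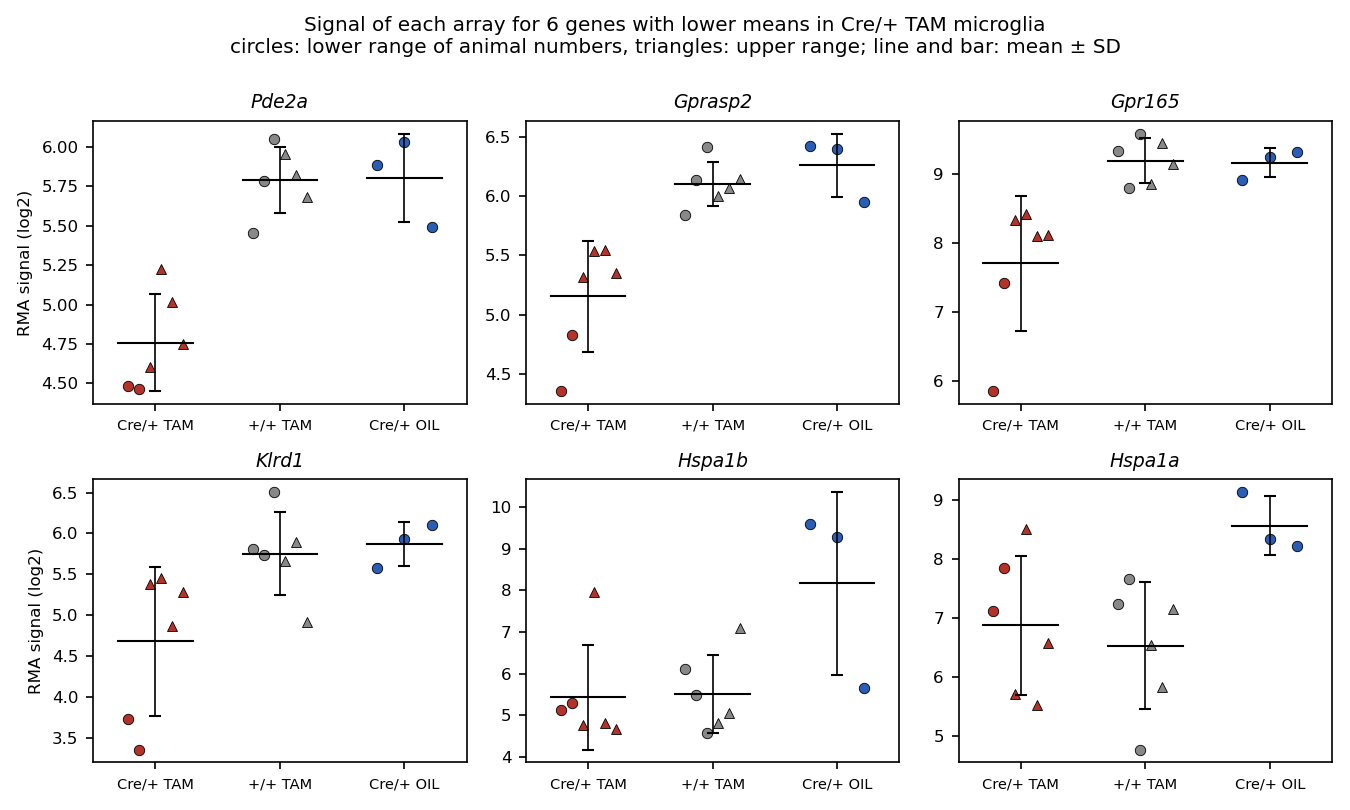
Log2 signal per array for 6 genes lower in Cre/+ TAM, with groups from left to right Cre/+ TAM, +/+ TAM and Cre/+ OIL, circles for the lower and triangles for the upper range of animal numbers, and bars for mean ± SD (n = 6, 6 and 3). *Pde2a*, *Gprasp2*, *Gpr165* and *Klrd1* do not overlap between Cre/+ TAM and Cre/+ OIL, whereas *Hspa1a* and *Hspa1b* do.

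The largest negative difference belonged to the inducible HSP70 chaperones, which refold proteins after stress. *Hspa1b* read 5.13, 5.29, 4.76, 7.95, 4.82 and 4.67 in Cre/+ TAM, against 9.59, 9.27 and 5.65 in Cre/+ OIL. For *Hspa1b* this gave a difference of -2.73 ± 0.80 (SE; adjusted p = 0.632). *Hspa1a* read 7.11, 7.84, 5.70, 8.501, 5.51 and 6.57 in Cre/+ TAM, against 9.13, 8.33 and 8.22 in Cre/+ OIL. The *Hspa1a* difference was -1.69 ± 0.63 (SE), with an adjusted p of 0.776. The high values of *Hspa1b* were Cre/+ OIL replicates 1 and 2 and Cre/+ TAM replicate 4, and the groups overlapped. Without the arrays with neg in the title, which leaves only Cre/+ OIL replicate 3, the differences were -0.21 for *Hspa1b* and -1.35 for *Hspa1a*. The 2 genes are near-identical neighbours on chromosome 17 (chr17:34956429-34959238 and chr17:34969199-34972156), so their probes may share signal. Of 15 chaperones 2 were lower at the threshold, 3 had an unadjusted p under 0.05 and the median was -0.12.

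Many of the lower clusters were short RNAs. Short non-coding RNAs made up 61.5% of the 26 lower clusters and 21.6% of the 74 higher, against 12.5% of all, and probes marked as able to bind related transcripts made up 50.0% of the lower, 20.3% of the higher, and 4550 of the 32471 clusters in all. *Gm24938* was represented by 3 clusters with identical values among the 26. *Gm23794* read 2.53, 2.80, 4.46, 3.73, 3.78 and 4.86 in Cre/+ TAM, against 4.99, 5.17 and 5.64 in Cre/+ OIL. For *Gm23794* this gave a difference of -1.57 ± 0.47 (SE; adjusted p = 0.632). *Gm22929* read 1.48 to 1.83 in Cre/+ TAM, against 4.03, 2.16 and 2.18 in Cre/+ OIL, where replicate 1 carried most of the difference. These clusters hold a median of 9 probes each and lie at a low signal, with a median of 2.83.

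The receptor pathway and the microglial programme showed few differences. Of 23 TGF-β ligands, receptors and carriers 0 were at the threshold, and the median was -0.05. *Acvr1b*, the activin type I receptor, read 6.14, 5.75, 5.46, 5.70, 5.67 and 5.51 in Cre/+ TAM, against 6.48, 6.33 and 6.05 in Cre/+ OIL, a difference of -0.58 with a 95% interval of -0.87 to -0.29. *Bmp2*, a ligand of the same superfamily, differed by 0.73, and these were the 2 of the list with an unadjusted p under 0.05. Among 25 Smads and feedback targets *Smurf1*, a ubiquitin ligase that targets receptors and Smads, alone had an unadjusted p under 0.05, at -0.39, and the median was 0.01. *Smad7*, the feedback inhibitor induced by the pathway, chosen after its values were seen, read 7.37 to 7.93 in Cre/+ TAM and 7.66 to 8.43 in Cre/+ OIL, with a 95% interval of the difference of -0.54 to 0.19.

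Homeostatic genes, 38 that mark resting microglia, had a median of -0.08, with 0 at the threshold. Of the 38 genes 12 had a difference above 0. An unadjusted p under 0.05 was reached by 1 higher gene, *Gpr84* (0.44), and 1 lower, *Gpr34*. The largest fall, which did not reach it, was *Crybb1* at -0.50. For *Crybb1* the difference was -1.19 within the lower range alone and -0.16 without Cre/+ TAM replicates 1 and 2. *Gpr34*, a lysophospholipid receptor, read 8.89, 9.57, 9.59, 9.73, 9.62 and 9.63 in Cre/+ TAM, against 9.84, 10.04 and 9.63 in Cre/+ OIL. The *Gpr34* difference was -0.33 ± 0.16 (SE), with an adjusted p of 0.849. *Sall1*, a transcription factor that maintains microglial identity, read 9.49 to 10.10 in Cre/+ TAM and 9.94 to 10.31 in Cre/+ OIL, and the 95% interval of the difference was -0.59 to 0.02. *Tmem119*, a membrane protein of microglia, had an interval of -0.63 to 0.33, and *P2ry12* one of -0.19 to 0.33. Each of these intervals spans 0. *Pecam1*, an adhesion molecule of endothelium and leukocytes, was lower outside this list, at 4.59 to 5.82 in Cre/+ TAM and 5.89 to 6.53 in Cre/+ OIL, -0.87 ± 0.21 (SE).

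Several other lists had no member at the threshold. Medians were 0.08 over 34 lysosomal genes, -0.05 over 24 genes of oxidative phosphorylation, 0.02 over 33 microglial and macrophage transcription factors, and -0.0032 over 144 genes within 5 Mb of *Cx3cr1*. Oestrogen receptors and their target genes, of interest because tamoxifen binds these receptors, had 0 of 18 at the threshold, 2 with an unadjusted p under 0.05 and a median of 0.10. Complement had 0 of 17 at the threshold; *C4b*, a component of the classical pathway, read 4.89 to 6.23 in Cre/+ TAM, against 4.85, 5.00 and 4.46 in Cre/+ OIL. Immediate early genes, transcribed within minutes of stimulation, had a median of 0.39. Among them *Egr1* read 9.23 to 10.69 in Cre/+ TAM, against 8.06, 8.45 and 10.98 in Cre/+ OIL. Cytokines and the TNF family had 0 of 27 at the threshold and a median of 0.03. Of that list *Tnf*, an inflammatory cytokine, read 7.15 to 8.95 in Cre/+ TAM, against 5.91, 6.16 and 8.52 in Cre/+ OIL. For *Egr1* and *Tnf*, Cre/+ OIL replicate 3 lay within or above the range of Cre/+ TAM and the other 2 Cre/+ OIL arrays lay below it. Without the arrays with neg in the title, which leaves only that Cre/+ OIL array, the signs turned, to -1.05 for *Egr1* and -0.66 for *Tnf*. *S100a8*, a neutrophil protein, read 2.28 to 2.75 in Cre/+ TAM, against 2.39, 2.37 and 8.55 in Cre/+ OIL. Its difference of -1.92 was 0.13 without replicate 3.

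**Figure D5:**
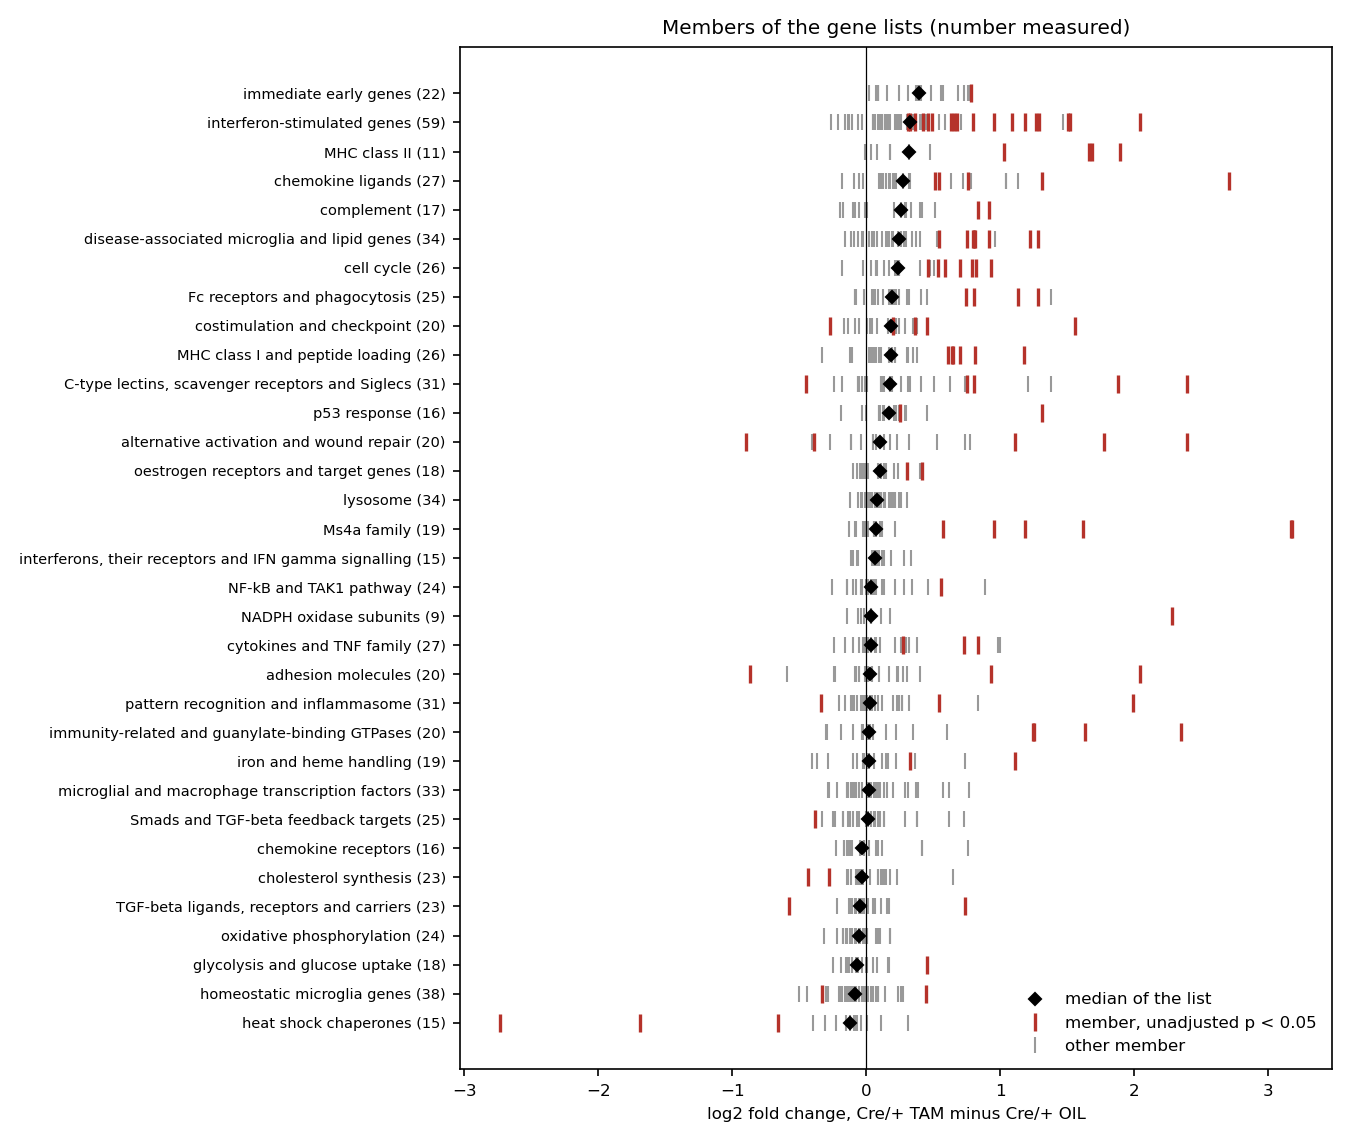
Difference in log2 signal, Cre/+ TAM minus Cre/+ OIL (horizontal axis), for the members of each gene list (rows), with a diamond at the list median, grey ticks for members and red ticks for members with an unadjusted p under 0.05. The medians lie between -0.12 for heat shock chaperones and 0.39 for immediate early genes. Cell type marker lists and the genes the study names from these arrays are not drawn.

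Cre/+ TAM shared tamoxifen with +/+ TAM and the Cre with Cre/+ OIL, so values against both are given side by side; the comparisons share arrays and are not independent. *Ms4a7* in Cre/+ TAM was higher by 3.27 against +/+ TAM (range 3.23 to 4.36) and by 3.17 against Cre/+ OIL. *Vcam1* was higher by 1.94 against +/+ TAM (range 4.53 to 5.22) and by 2.05 against Cre/+ OIL, and *H2-Ab1* by 1.90 and 1.90. For the last, +/+ TAM ranged over 6.13 to 6.53 and Cre/+ OIL over 6.06 to 6.57. *Pde2a* differed by -1.03 against +/+ TAM (range 5.46 to 6.05) and by -1.05 against Cre/+ OIL. *Hspa1b* differed by -0.09 against +/+ TAM (range 4.59 to 7.09) and by -2.73 against Cre/+ OIL, so that Cre/+ OIL replicates 1 and 2 stood above every +/+ TAM array. +/+ TAM against Cre/+ OIL had 10 clusters higher (0.0308%) and 16 lower (0.0493%) at the threshold and 0 past an adjusted p of 0.05 in limma. Cre/+ TAM against +/+ TAM had 62 clusters higher (0.191%) and 4 lower (0.0123%) at the threshold. Past an adjusted p of 0.05 it had 7 higher (0.0216%) and 1 lower (0.00308%).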

How the data were processed

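Microglia from 15 mice were hybridised to Affymetrix Mouse Gene 2.0 ST arrays after amplification of small amounts of RNA; the text calls replicates by group and number. The authors deposited log2 signals, normalised and summarised with RMA over transcript clusters, with array positions and gene symbols; columns of their own comparisons (signed fold changes and p-values) were not used. Clusters with a gene symbol (32471 of 34390) were tested. All 15 arrays were fitted by group in limma 3.58.1 (R 4.3.3), with Benjamini-Hochberg adjustment, and lists were counted over 1 cluster per gene. The study's own threshold, applied there to Cre/+ TAM against +/+ TAM, combined a p under 0.05 with a 2-fold or larger difference. The unadjusted p was used for it here. The number of arrays limits the precision. Where nothing else is stated the build is GRCm38; 7894 of 8197 clusters whose description gives coordinates (96.3%) overlap them. Promoter windows and gene starts came from RefSeq tables on GRCm38.p6. A second deposited table of log2 values held 6955 further probe sets.

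Genes named were those with the 15 largest differences in each direction at the threshold, the leading 2 to 4 members of each list, the genes the study names from these arrays, *Tgfbr2* and *Cx3cr1*; any gene outside this rule was picked once its values were known, and the text says so, except for list members named to complete a count. Members, lists and alternatives were chosen with earlier results of these data known. The fit was tested on simulated data that gave all groups the same spread and shifted all Cre/+ TAM arrays alike. It therefore did not cover the unequal spread of the higher clusters. Alternatives covered centring, quantile normalisation, the second table, signal filters, clusters tested, variance model, array weights, arrays fitted, the range of animal numbers, the methods' test and leaving out arrays. Python 3.11.15 with pandas 2.3.3 and matplotlib 3.10.9 was used for tables and plots.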

Additional observations from a re-analysis of the deposited data

Results flagged for a closer look

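In 20 of the 125 genes named, 1 Cre/+ TAM array lay further from the other 5 than Dixon's criterion allows, and the same held in +/+ TAM for 6 genes. For genes picked blind, chance marks about 1 group in 20, or about 5% of the genes tested in each group. Many of these genes were picked by their values on the same arrays, so that rate is no test of the count. Cre/+ TAM replicate 1 accounted for 15 of the 20. It lay highest for *Cd163* at 6.995 (other arrays 3.70 to 4.37), *Il10* at 6.477 (2.95 to 3.73), *Cp* at 7.704 (4.64 to 5.35), *Cd55* at 6.738 (4.14 to 4.55) and *Tlr8* at 5.223 (1.89 to 2.78), genes of a haemoglobin scavenger receptor, an anti-inflammatory cytokine, a ferroxidase, a complement regulator and an endosomal RNA sensor. It also lay highest for *Lpl* at 7.249, *Apoe* at 7.24, *C920009B18Rik* at 6.58, *Bst2* at 8.581 and *Ctsb* at 10.8. The same array lay lowest for microglial genes, *Gpr34* at 8.892 (9.57 to 9.73), *Upk1b* at 6.585 (8.10 to 8.78), *Csf1r* at 11.01 and *P2ry12* at 11.02, and for *Pecam1* at 4.586.

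Averages over gene lists showed the same array: of 47 lists 7 had 1 Cre/+ TAM array apart, each time replicate 1. Its mean was higher than in the other 5 for border-associated macrophages (6.754, against 4.92 to 5.57), for C-type lectins, scavenger receptors and Siglecs (6.338), for alternative activation and wound repair (6.079), for iron and heme handling (6.755) and for monocytes (4.603). Its mean was lower for homeostatic microglia genes (8.744, against 9.18 to 9.28) and for the 8 microglia markers (9.635, against 10.05 to 10.16). The part of other macrophages in this array was not tested.

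Single values in other Cre/+ TAM arrays were *Hspa1b* at 7.952, *Gm23712* at 3.609 and *Ttr* at 10.86 in replicate 4, *Pgam1* at 5.867 in replicate 3 and *Socs3* at 6.565 in replicate 2. In +/+ TAM they were *Cyba* at 6.128 in replicate 2 (other arrays 7.84 to 8.44), *Ifnb1* at 2.502 in replicate 3, *Mog* at 5.227 and *Ms4a14* at 2.591 in replicate 4, *Kntc1* at 3.835 in replicate 5 and *Fcgr4* at 5.889 in replicate 6.

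Among 6955 probe sets that only the second deposited table holds 5 were higher in Cre/+ TAM past an adjusted p of 0.05 in limma and 0 lower. Probe sets 17549014, 17549136 and 17549148 carried identical values, 9.34 to 9.67 in Cre/+ TAM, against 5.81 to 6.09 in Cre/+ OIL, a difference of 3.525 ± 0.15 (SE). Probe set 17549066 read 8.29 to 8.66 in Cre/+ TAM, against 5.23 to 5.49 in Cre/+ OIL, a difference of 3.173 ± 0.13 (SE), and probe set 17549072 read 8.96 to 9.09, against 5.80 to 6.02, a difference of 3.157 ± 0.14 (SE). Each had an adjusted p of 2.755e-09, and +/+ TAM arrays lay at 5.15 to 6.33 over these probe sets. The sources used here do not say what they detect. All 6 Cre/+ TAM arrays, the pair included, were high for them, and all arrays of the other groups were low.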

How the results depend on the processing

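Results were recomputed under 30 alternatives, 15 of which left out 1 array. Over 125 genes, 31 values in 23 genes turned sign and 53 values in 37 genes passed an adjusted p of 0.05 in limma, and of the 48 list medians 67 values moved and 1133 did not. With the range of animal numbers as a block, 17 clusters were higher and 4 lower past the adjusted threshold and 187 higher at the study's threshold. That block was estimated without any upper-range Cre/+ OIL array. Within the lower range alone 75 were higher and 9 lower past the adjusted threshold, and 274 higher and 74 lower at the study's threshold. Leaving out Cre/+ TAM replicates 1 and 2 gave 3 higher past adjustment and 43 at the study's threshold. Leaving out the arrays with neg in the title, which leaves 1 Cre/+ OIL array assumed to vary like the other groups, gave 2 and 4 past adjustment and 69 higher and 68 lower at the study's threshold, with 25 of the 74 and 5 of the 26 among them, and 66 and 25 kept their sign. Only clusters above the median signal gave 10 lower, the methods' unpaired test gave 30 higher, and the adjusted p in place of the unadjusted one gave 0 and 0. Leaving out 1 array gave 0 to 3 clusters higher and 0 to 1 lower past adjustment, and 54 to 168 higher and 21 to 85 lower at the study's threshold. Cre/+ OIL mattered most: without replicate 3 these were 168 and 85 (56 of the 74 and 24 of the 26 among them), without replicate 2 they were 62 and 42, and without replicate 1 they were 57 and 21. The cause of these shifts was not tested; leaving out arrays also leaves fewer to estimate the spread. Past adjustment without 1 array stood *Gm4951* (without Cre/+ OIL replicate 1), *Ctla2b*, *Gm16677* and *Gm26423* (without replicate 2), and *Gm24877*, lower (without Cre/+ TAM replicate 6).

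Signs turned without the arrays with neg in the title for *Btg2* (-0.423), *Ccrl2* (-0.41), *Cdkn1a* (-0.0662), *Csf1r* (-0.0247), *Egr1* (-1.05), *Gm22469* (0.0378), *H2-Q5* (-0.11), *Id2* (-0.522), *Insig1* (-0.346), *Junb* (-0.536), *Kl* (-0.423), *Nfkbia* (-0.116), *Nfkbiz* (-0.914), *Socs3* (-0.57), *Tnf* (-0.658) and *Ttr* (-0.31). Others were *Csf1r* (-0.0127) under quantile normalisation, *Cyba* (-0.0496) with the block, *Csf1r* (-0.0857) and *P2ry12* (-0.0504) in the lower range, and *Fcrls* (0.0107) and *Siglech* (0.0132) without Cre/+ TAM replicates 1 and 2. Leaving out 1 Cre/+ OIL array also turned signs, with ranges over all arrays left out of *Csf1r* -0.0481 to 0.095, *Kl* -0.205 to 0.686, *P2ry12* -0.0531 to 0.165, *Socs3* -0.0567 to 0.787, *Ttr* -0.0911 to 0.943, *Fcrls* -0.144 to 0.0199, *S100a8* -2.96 to 0.134, *S100a9* -2.76 to 0.0672 and *Tgfbr2* -0.271 to 0.00700; the last 3 turned without replicate 3, *Fcrls* without replicate 2 and the others without replicate 1. No paired analysis was possible because the labels carry no replicate numbers shared between groups. Where nothing says otherwise, p-values rest on the spread between mice within groups, pooled over Cre/+ TAM, Cre/+ OIL and +/+ TAM. That spread was not equal for the 74 higher clusters. Their median SD was 0.91 in Cre/+ TAM, 0.42 in Cre/+ OIL and 0.39 in +/+ TAM.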
